A study of Rattus norvegicus with 2 samples.

Results

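Hox genes encode homeodomain transcription factors that give cells their position along the head-to-tail axis. Expression of 25 of them could be read on a whole-genome array of rat nucleus of the solitary tract (NTS). The members were taken by name: every probe outside the control spots whose transcript accession belongs to a rat RefSeq gene called Hox, followed by a cluster letter from a to d and a paralogue number. That gave 30 probes for 25 of the 39 such genes in RefSeq, out of 16581 named genes on the array. Hoxa3, Hoxa4, Hoxa5, Hoxa9, Hoxa10, Hoxb1, Hoxb2, Hoxb6, Hoxc6, Hoxc10, Hoxc11, Hoxc13, Hoxd8 and Hoxd11 had no named probe and were not analysed here.

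The NTS lies in the dorsal medulla and is the first relay of signals from the heart, vessels and viscera. The study compared it between male and female spontaneously hypertensive rats (SHR), an inbred strain with high blood pressure. All rats were adults of that strain aged 9 weeks, with food and water freely available. Tissue was taken from 1.0 mm in front of the calamus scriptorius, the caudal tip of the fourth ventricle, to 0.5 mm behind it. RNA of 5 rats of a sex was pooled, 100 ng from each, and 1 Cy3-labelled array was hybridised per sex. Both groups are therefore single pools: variation between animals cannot be estimated, and nothing was tested. Both arrays were on 1 slide and carry the same scan.

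Hox genes lie in 4 clusters, A to D. Genes near one end of a cluster have low paralogue numbers and are switched on early and far forward in the embryonic hindbrain. Genes at the other end have high numbers and act in the caudal spinal cord, limbs and urogenital tract. The order along the chromosome thus mirrors the order along the body, a property called collinearity. Hindbrain and cervical neurons of adult rodents keep part of this pattern, and retinoic acid, Polycomb repressors and the TALE partner proteins Pbx and Meis act with it.

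Upstream sequence is shown because genes of 1 cluster differed in detection, as Hoxd4 and Hoxd9 of cluster D did. Genes of cluster B had no window. RefSeq (build GRCr8) gave the 250 bases before the annotated start for 13 of the 25 genes. They held a median of 20 CpG dinucleotides, against 5 over all 33469 windows of that length, and 12 of the 13 held at least 5. Both strands were searched for these motifs: TGATNNAT, a site for joint Hox and Pbx binding, AGGTCA, the half-site of retinoid and other nuclear receptors, and TATAAA, the TATA box. TGATNNAT occurred in 1 of the 13 windows and in 7.96% of all windows, AGGTCA in 3 and 14.1%, and TATAAA in 1, that of Hoxd13 with overlapping matches on both strands, and 12.9%. A match is a description of letters and shows no binding.

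Windows of 4 genes are given 5′ to 3′ on the strand of the gene, with matches in capitals. Hoxa2, Hoxc4 and Hoxd4 are members with a window and a signal of 5 or more where the array's 75th percentile is 100, and Hoxd9 was not well above background on either array.
Hoxa2, chr4:82595693-82595942, minus strand: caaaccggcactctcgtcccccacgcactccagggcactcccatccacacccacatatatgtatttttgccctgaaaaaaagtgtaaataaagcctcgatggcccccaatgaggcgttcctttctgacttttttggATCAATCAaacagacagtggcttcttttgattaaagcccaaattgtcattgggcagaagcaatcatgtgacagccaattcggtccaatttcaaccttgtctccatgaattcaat
Hoxc4, chr7:136048809-136049058, plus strand: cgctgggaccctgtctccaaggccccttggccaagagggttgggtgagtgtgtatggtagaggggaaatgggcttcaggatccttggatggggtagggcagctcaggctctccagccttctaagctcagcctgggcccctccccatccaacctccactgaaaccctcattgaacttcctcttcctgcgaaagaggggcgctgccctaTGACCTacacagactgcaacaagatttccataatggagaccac
Hoxd4, chr3:80021636-80021885, plus strand: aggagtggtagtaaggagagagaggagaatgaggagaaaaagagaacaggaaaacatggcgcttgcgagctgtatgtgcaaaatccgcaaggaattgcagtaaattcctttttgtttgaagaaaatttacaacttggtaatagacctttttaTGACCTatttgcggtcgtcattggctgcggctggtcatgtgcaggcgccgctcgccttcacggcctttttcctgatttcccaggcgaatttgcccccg
Hoxd9, chr3:80007756-80008005, plus strand: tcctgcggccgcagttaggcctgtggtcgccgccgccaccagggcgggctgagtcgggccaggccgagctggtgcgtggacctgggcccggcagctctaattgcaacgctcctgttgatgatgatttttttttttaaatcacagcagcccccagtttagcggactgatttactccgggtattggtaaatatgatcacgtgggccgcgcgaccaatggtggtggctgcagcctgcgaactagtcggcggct
The Hoxa2 capitals are a TGATNNAT match on the opposite strand that begins 114 bases before the start. The Hoxc4 and Hoxd4 capitals are AGGTCA matches on the opposite strand, beginning 43 and 98 bases before the start. The Hoxd9 window held 20 CpG dinucleotides and no match to any of the motifs, against 6 CpG in the Hoxa2 window, 3 in Hoxc4 and 12 in Hoxd4. The other windows did not follow that contrast. Of measured genes, Hoxa13 held 39 CpG, Hoxa6 and Hoxa7 28 each and Hoxd1 25, all without a match. Hoxa11 and Hoxd3 held 11 each and Hoxd12 14, also without a match, and Hoxd10 held 21 and an AGGTCA match. Hoxd13, not well above background on either array, held 30 CpG and the TATAAA matches.

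Detection differed by paralogue group. A probe counted as measured when both arrays had it marked well above background by the scanner software. A gene counted when at least 1 of its probes did. By this rule 18 of 25 Hox genes (72%) were measured, against 81% of all named genes. All 10 members of paralogue groups 4 to 8 were measured, as were 4 of 5 in groups 1 to 3 and 4 of 10 in groups 9 to 13. The contrast depends on the flag. By the software's weaker flag, positive and significant against background on both arrays, Hoxb9, Hoxc9 and Hoxd9 of groups 9 to 13 would count too. By cluster, 5 of 6 genes of cluster A, 5 of 7 of B, 3 of 5 of C and 5 of 7 of D were measured. Of 30 probes, 21 were well above background on both arrays. Each probe had 1 spot, none was flagged as an outlier and none was saturated.

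**Figure D1:**
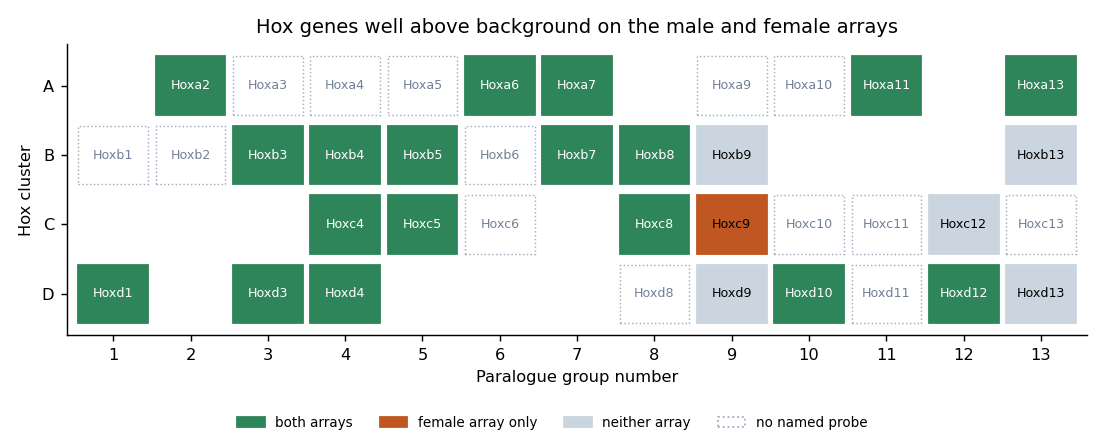
Grid of the Hox genes by cluster (rows A to D) and paralogue group number (columns 1 to 13), coloured by whether a probe was well above background on both arrays, on the female array alone or on neither; dotted boxes are RefSeq genes with no named probe, and 24 of the 25 genes with one are drawn. All 10 genes read in groups 4 to 8 are green, and 5 of the 10 in groups 9 to 13 are grey.

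Signals are given as scaled signal, the background-corrected intensity set so that the 75th percentile of each array is 100. Probes differ in how strongly they bind, so values are compared between arrays for 1 probe and not between probes. The lowest signal called well above background was 0.365 in the male pool and 0.344 in the female pool. The 308 negative control spots of each array had a median of 0.0855 in the male pool and 0.0808 in the female pool. Differences are female minus male on the log2 scale. The ± beside a difference is the scanner software's error estimate for the spots on both arrays, which does not cover animals, pools, labelling or hybridisation. It was 0.20 alike for the single bright probes of Hoxb4, Hoxb5, Hoxb7 and Hoxc4. With 1 spot per Hox probe it is not a spread measured between spots. Repeated spots of 1323 other probes had a median SD of the difference of 0.04. A difference smaller than its error is thus a statement about that estimate only.

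**Figure D2:**
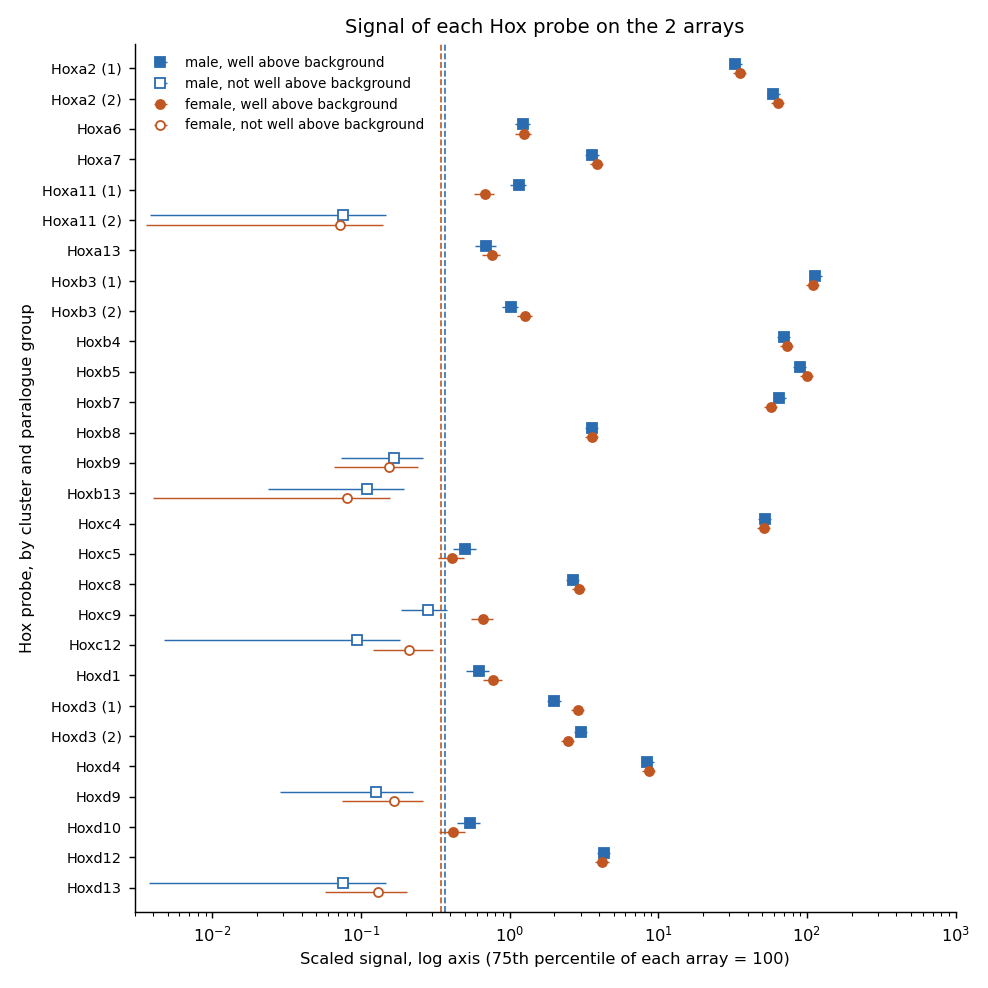
Scaled signal of 28 of the 30 Hox probes (rows; numbers in brackets mark several probes of a gene) on the male (squares) and female (circles) array, on a log axis; filled symbols were well above background, bars are the scanner's error (shortened where they would reach 0) and dashed lines are the lowest signal called well above background. The male and female symbols of most filled probes lie side by side, and the probes of Hoxb9, Hoxb13, Hoxc12, Hoxd9 and Hoxd13 lie left of both lines.

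Genes of paralogue groups 1 to 3 pattern the hindbrain segments and the branchial arches. Hoxa2, which gives the second branchial arch its identity and is active in the hindbrain, had 2 probes. The first read 33.1 in the male pool and 35.6 in the female pool, and the second 59.5 and 63.8. Both probes placed Hoxa2 slightly higher in the female pool, at 0.11 and 0.10. The gene's difference was 0.10 ± 0.14, smaller than its error.

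Hoxb3, a gene of the caudal hindbrain, had probes to different transcript models. One read 114 in the male pool and 110.1 in the female pool, and the other read 1.02 and 1.26. The first was nearly level (-0.05) and the second was higher on the female array by 0.32. Their mean was 0.13 ± 0.16 and turned to -0.05 when only the brightest probe was taken.

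Hoxd3, which is active in the hindbrain and the neck vertebrae, also had 2 probes, and they went opposite ways. One read 1.99 in the male pool and 2.89 in the female pool (0.53 ± 0.22), and the other 3.0 and 2.47 (-0.28 ± 0.21). The mean of 0.13 ± 0.15 therefore describes neither probe, and it was -0.28 with the brightest probe alone.

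Hoxd1, which acts in pain-sensing neurons of mice, read 0.618 in the male pool and 0.778 in the female pool. Its difference of 0.33 ± 0.33 was about the size of its error.

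Genes of groups 4 and 5 have their forward limits in the caudal hindbrain, the region that becomes the medulla. Hoxb4, a hindbrain gene also known for expanding blood stem cells, read 70.4 in the male pool and 73.0 in the female pool (0.05 ± 0.20). Hoxc4 read 52.2 and 51.1 (-0.03 ± 0.20), and Hoxd4, which responds to retinoic acid in the embryonic hindbrain, read 8.46 and 8.60 (0.02 ± 0.21). The 3 genes of group 4 on the array, from 3 clusters, were all measured and all nearly level between the pools.

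Hoxb5, a hindbrain gene also active in the neural crest that builds the gut nervous system, read 89.8 in the male pool and 100.1 in the female pool. Its difference of 0.16 ± 0.20, or 1.11-fold, was smaller than its error. Hoxc5, its paralogue in cluster C, was dim, at 0.504 in the male pool and 0.411 in the female pool (-0.30 ± 0.38). Hoxb5 was higher and Hoxc5 lower in the female pool, each within its error.

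Groups 6 to 8 are best known from the cervical and thoracic spinal cord. Hoxb7 read 65.4 in the male pool and 57.0 in the female pool. At -0.20 ± 0.20, or 1.15-fold, this was the largest difference among the 7 Hox genes with a mean scaled signal of 5 or more, and it was still smaller than its error. Hoxa7, its paralogue, read 3.59 and 3.87 (0.11 ± 0.21).

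Hoxb8, needed in mice for normal grooming, read 3.57 in the male pool and 3.56 in the female pool. Hoxc8, which specifies motor neurons of the forelimb level, read 2.67 and 2.93 (0.14 ± 0.21). Hoxa6 read 1.23 and 1.24. None of the genes in groups 6 to 8 differed by more than its error, and in cluster B both Hoxb7 and Hoxb8 were measured while their neighbour Hoxb9 was not.

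Groups 9 to 13 act in the thoracic to sacral cord, limbs and urogenital tract, and here most probes were dim. Hoxb9 read 0.167 in the male pool and 0.154 in the female pool, and Hoxb13, a prostate gene, 0.109 and 0.0802. Hoxc12 read 0.0945 and 0.212. Hoxd9, a gene of lumbar motor neurons, read 0.127 and 0.167, and Hoxd13, a digit gene, 0.0755 and 0.131. These 5 genes were not well above background on either array, so they have no fold. Hoxb9 and Hoxd9 still carried the scanner software's weaker flag, positive and significant against background, on both arrays.

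Hoxc9, which sets thoracic motor neuron identity, was well above background on the female array only, at 0.660 against 0.282 on the male array. Set against the lowest signal called well above background on the male array, it was higher in the female pool by at least 1.81-fold. That bound leaves out the scanner's error of 0.108 on the female signal. It was 1 of the 2.79% of named genes above background on the female array alone, and no Hox gene was among the 0.905% above it on the male array alone. Bounds of at least 1.5-fold toward the female pool were found for 158 of 16581 named genes, 0.953%. Hoxc9 lay close to the limit of detection, and its ratio was not checked by a further probe.

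The 4 measured genes of groups 9 to 13 were Hoxa11, Hoxa13, Hoxd10 and Hoxd12. Hoxa11, a gene of limb, kidney and uterus, had 1 of 2 probes measured. That probe read 1.15 in the male pool and 0.681 in the female pool, a difference of -0.76 ± 0.28 or 1.69-fold. The other probe read 0.0757 and 0.0718 and was not well above background on either array. The difference thus rests on 1 dim spot per array. It was -0.24 with normexp background correction, -0.29 without background correction and -0.42 when both probes were averaged, all under 1.5-fold.

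Hoxa13, a gene of digits and the urogenital tract, read 0.697 in the male pool and 0.757 in the female pool (0.12 ± 0.31). Hoxd10, a gene of lumbar motor neurons, read 0.540 and 0.419 (-0.37 ± 0.39). Hoxd12, a limb gene, read 4.29 and 4.20 (-0.03 ± 0.21). The Hoxd12 signal was 11.7 times the lowest signal called well above background on the male and 12.2 times on the female array, and it comes from a single probe.

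Between the pools, 1 of 18 measured Hox genes passed 1.5-fold, beside 2.29% of 13428 measured named genes. None passed toward the female pool, where 1.5% of all genes did, and Hoxa11 passed toward the male pool, where 0.797% did. At a looser ratio of 5 to 4, Hoxd1 passed toward the female pool (5.09% of all genes) and Hoxa11 and Hoxd10 toward the male pool (3.05%). No Hox gene passed 2-fold, which 0.402% of all genes did toward the female and 0.149% toward the male pool. The median of the 18 differences was 0.04, against 0.02 over all measured genes, and their SD was 0.25 against 0.23. The difference was above 0 for 11 of the 18, or 61.1%, against 55.5% of all genes. These shares are near those of all genes. A difference past 1.96 times the scanner's error was seen for Hoxa11 alone, 1 of 18, against 4.08% of all genes.

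**Figure D3:**
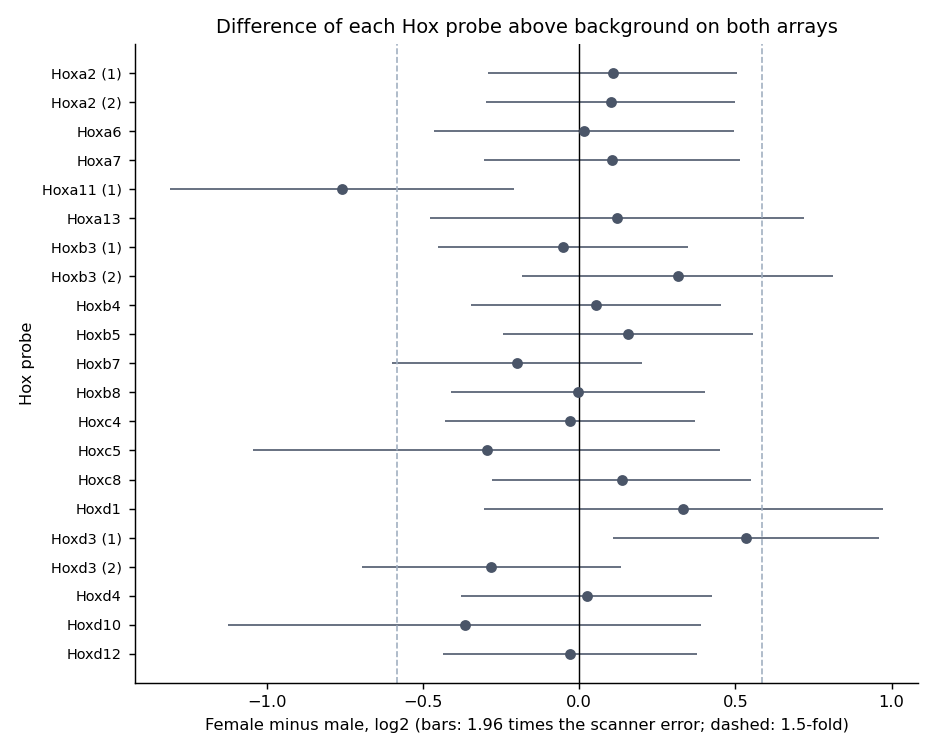
Female minus male difference (log2) of the 21 Hox probes well above background on both arrays, with bars of 1.96 times the scanner's error and dashed lines at 1.5-fold. The bars of 19 probes cross 0, and those of Hoxa11, toward the male array, and of 1 Hoxd3 probe, toward the female array, do not.

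Size of signal bore on these counts. Of 7 Hox genes with a mean scaled signal of 5 or more, none passed 1.5-fold and their differences ran from -0.20 to 0.16. Over all genes of that brightness 0.678% passed. Of 11 dimmer Hox genes, Hoxa11 passed and the differences ran from -0.76 to 0.33, beside 6.33% of all dimmer genes. Where 2 probes of a gene were measured and the dimmer one was under 5, the probes' differences were a median of 0.18 apart over 1128 genes. Hoxb3 (0.37) and Hoxd3 (0.81) had wider gaps than that, but the Hoxb3 gap was under the 90th percentile of 0.48. Over 1363 genes with both probes at 5 or more the median gap was 0.06, and Hoxa2 had 0.01.

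**Figure D4:**
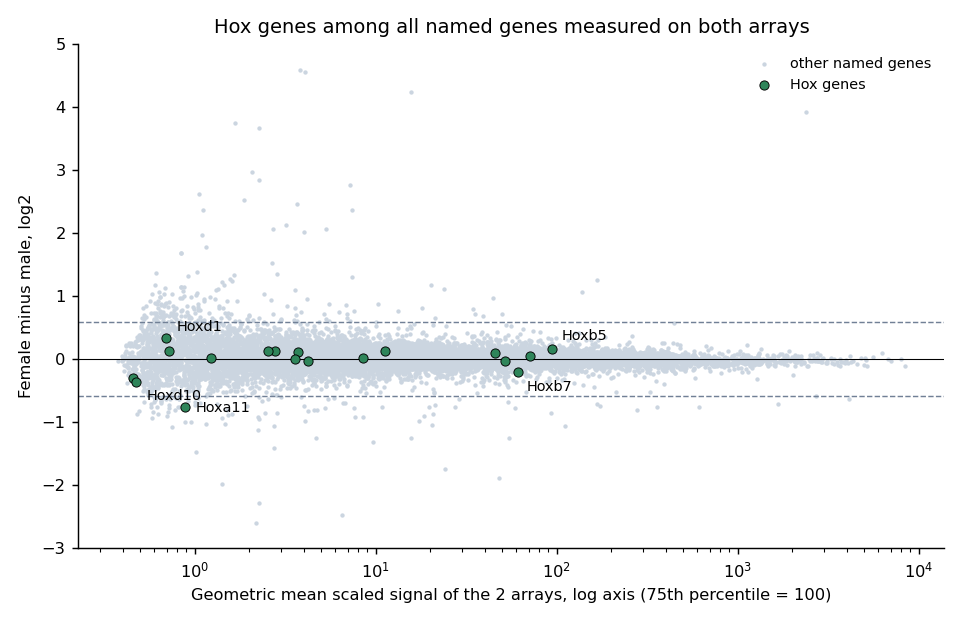
Female minus male difference (log2) against the geometric mean scaled signal of the 2 arrays (log axis) for 13428 measured named genes, with the 18 Hox genes in green and dashed lines at 1.5-fold. Hoxa11 is the 1 Hox gene outside the dashed lines, at -0.76, in the dim part of the range where all genes spread more.

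Along the axis, the 4 measured genes of groups 1 to 3 had a median of 0.13 and all were above 0. The 10 of groups 4 to 8 had a median of 0.02 with 6 above 0, and the 4 of groups 9 to 13 had -0.20 with 1 above 0. With so few genes, and with Hoxa11 alone past 1.96 times its error, this order is given as a description. It was partly lost under other settings: with normexp correction 2 of the 4 genes of groups 1 to 3 were above 0, with the brightest probe also 2, and without background correction or with spike-in centring 2 of the 4 genes of groups 9 to 13 were. With normexp the medians of groups 1 to 3 and 4 to 8 were both 0.02. With no filter on dim probes the median of groups 9 to 13 turned to 0.05, with 5 of 10 above 0, and lay above that of groups 4 to 8. The median of groups 4 to 8 turned to -0.02 with quantile normalization, -0.01 with median centring and -0.02 with cyclic loess.

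TALE proteins are partners that join Hox proteins on DNA. All 8 of their genes on the array were measured and none passed 1.5-fold, with a median of 0.11 and all 8 above 0. Over all genes 81% were measured, 2.29% passed 1.5-fold and 55.5% were above 0, the last share being 75.5% with spike-in centring. Meis1 read 26.9 in the male pool and 29.0 in the female pool (0.11 ± 0.20), and Meis3 19.7 and 21.0 (0.09 ± 0.20). Every one of these differences was within 0.22. The count above 0 fell to 7 with normexp, quantile, median and loess settings and to 6 with the brightest probe.

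Of 15 measured genes of the retinoic acid pathway none passed 1.5-fold (median 0.07). Cyp26a1, which degrades retinoic acid, was not well above background on either array, and neither was Aldh1a3. Cyp26b1, of the Cyp26a1 family, was measured at 26.6 in the male pool and 24.8 in the female pool. Aldh1a1 and Aldh1a2, which make retinoic acid, read 28.1 and 111 in the male pool against 24.9 and 96.1 in the female pool. Of 18 measured Polycomb and trithorax genes, which silence Hox genes or keep them active, none passed 1.5-fold (median 0.07). The difference was above 0 for 14 of the 18, against 55.5% of all genes, and for 18 with spike-in centring, against 75.5%. Bmi1, not among the 14, read 4.41 in the male pool and 4.37 in the female pool. Ash2l, also not among them, read 22.7 and 22.6.

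Of 7 measured hindbrain and axial regulators, 1 passed 1.5-fold, beside 2.29% of all genes and 6.33% of those with a mean scaled signal under 5, where it lies. Cdx2, a caudal homeobox gene that activates Hox genes in the embryo, was dim at 0.781 in the male pool and 1.39 in the female pool, a 1.78-fold difference (0.83 ± 0.28). Of 12 measured genes that flank the clusters none passed 1.5-fold (median 0.03). Calcoco1, next to cluster C, read 45.6 in the male pool and 48.8 in the female pool, and Cbx5, near the same cluster, 91.9 and 94.5. Evx1, the homeobox gene next to cluster A, read 2.59 and 2.80.

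Position in the brain was checked with genes of other regions. Of 19 forebrain and midbrain transcription factor genes on the array, 8 were measured (42.1%), against 81% of all named genes. On neither array were 9 of them well above background, among them Emx2, Six3 and Tbr1. Dlx1 was well above background on the male array only, a bound of at least 1.22-fold, and Pax7 on the female array only, at least 1.18-fold. Of the 8 measured genes, Otx2 passed 1.5-fold, beside 1.5% of all genes toward the female pool. It read 2.77 in the male pool and 18.8 in the female pool, a 6.78-fold difference.

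All 11 genes of dorsal medulla and visceral neurons on the array were measured, against 81% of all named genes. None passed 1.5-fold (median 0.05). This list also holds enzyme, peptide and receptor genes, so its share is not compared with that of the forebrain and midbrain list. Dbh, the enzyme gene of noradrenaline synthesis, read 399 in the male pool and 381 in the female pool, and Calcr, the calcitonin receptor gene, 11.2 and 12.3. Cartpt, a satiety peptide gene, read 257 and 225. Tlx3, a defining factor of NTS neurons, had no named probe and was not analysed here. Of 8 vagal and hypoglossal motor neuron genes, Calca alone passed 1.5-fold, at 15.2 in the male pool and 6.13 in the female pool. Over all genes 0.797% passed toward the male pool. The median of the 8 was -0.22 with 1 gene above 0, against 55.5% of all genes.

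Markers of other tissue differed between the pools, and sex, pool and hybridisation cannot be told apart with 1 array per sex. Of 20 measured choroid plexus genes 19 passed 1.5-fold toward the female pool, where 1.5% of all genes did. The median of the 20 was 1.68, and the summed scaled signal was 910 in the male against 10078 in the female pool. Ttr carried most of that sum, which was 292 and 752 without it. The most different were Kcnj13 (23.5-fold), Sostdc1 (18.8-fold), Ttr (15.1-fold) and Prlr (7.79-fold), and Tmem72 had a bound of at least 7.22-fold. Of 7 blood genes on the array, the 5 measured passed 1.5-fold toward the male pool, where 0.797% of all genes did, with sums of 481 and 289. These were Slc4a1 (1.90-fold), Ahsp (1.89-fold), Hbb (1.68-fold), Alas2 (1.66-fold) and Hba-a2 (1.63-fold). Otx2 is also in the choroid plexus list.

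Other marker lists differed less. Of 14 measured genes of meninges and fibroblasts, Slc47a1 (2.25-fold) and Igf2 (1.74-fold) were higher on the female array and Col1a2 (1.70-fold) on the male array. The median was 0.16 with 11 of 14 genes higher in the female pool, while the sums were 604 and 448. Without Col1a2 the sums were 135 and 172. Of 10 cerebellar genes the dim Fat2 was 2.05-fold higher on the female array (sums 319 and 349). None of 10 oligodendrocyte genes (sums 2387 and 2030), 10 neuron genes (7008 and 6610) or 8 astrocyte genes (9668 and 9381) passed 1.5-fold. Among them were Cldn11, Cnp, Gap43, Eno2, Aldoc and Aldh1l1. Without the brightest gene the neuron sums were 3146 and 2864 and the astrocyte sums 2548 and 2418. Above 0 were 0 oligodendrocyte, 1 neuron, 3 astrocyte and 9 cerebellar genes, against 55.5% of all genes. With spike-in centring these counts were 2, 5, 4 and 9, against 75.5%. Fewer cells of a type and less RNA per cell cannot be told apart in bulk tissue. The part of these tissues in the Hox values was not tested.

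**Figure D5:**
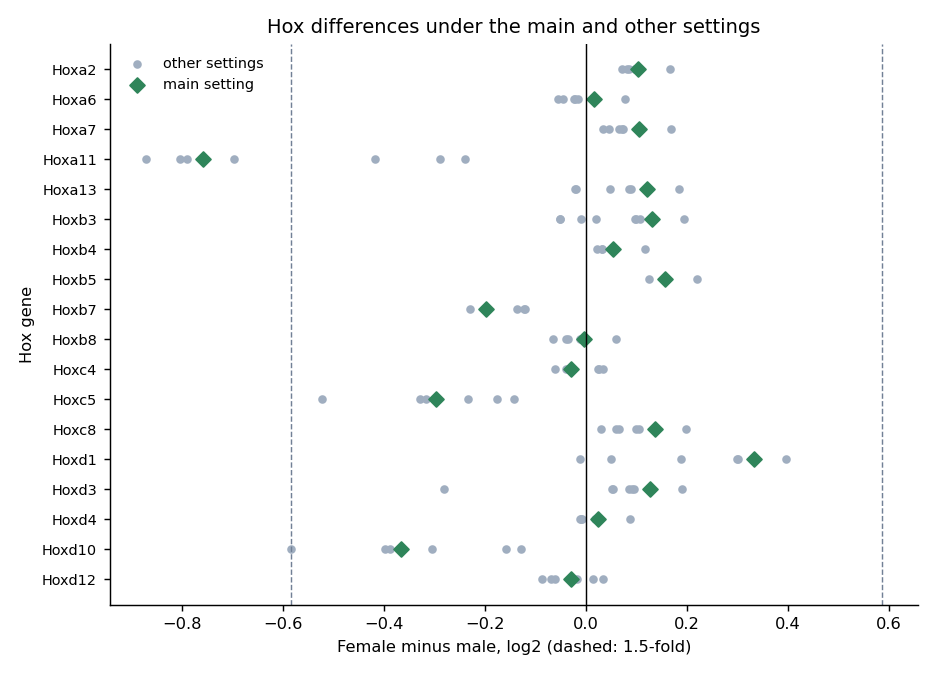
Female minus male difference (log2) of each measured Hox gene in the main setting (diamonds) and in up to 14 other settings of background correction, scaling, filtering and probe summary (grey points), with dashed lines at 1.5-fold. Hoxa11 ranges from -0.87 to -0.24 and Hoxb5 from 0.12 to 0.22; 9 of the 18 genes keep their sign in every setting that gave a value.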

How the data were processed

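Total RNA pools of 5 rats per sex were labelled with Cy3 and read on 1 Agilent 1-colour array each. The deposited scanner files hold spot intensity on a linear scale from Feature Extraction, version 11.5.1.1 per the file headers and 9.1 per the submitters' processing notes. The processed intensity is already background-corrected per the file headers, whose array design names an older rat assembly (rn4). Flags of the same files (values of 0 or 1) mark outlier, saturated and background spots. The authors' deposited value table equals the processed intensity divided by 22.8 (male) and 23.4 (female) (SD of the log2 ratio 0.00046 and 0.00034), a linear scale without gene centring or a direction, with column medians of 19.4 and 19.6.

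Here log2 of the processed intensity minus each array's 75th percentile was used, control and outlier spots were left out, repeated spots were averaged, and a gene was the mean of its probes well above background on both arrays. Of 45595 probes, 21109 were named through accessions without versions, from RefSeq (GRCr8). Spots well above background made up 80.1% of the male and 82.3% of the female spots outside controls. The number of arrays, 1 per sex, limits the precision. The fold threshold was 1.5. A bound sets the bright signal against the higher of the dim signal and the lowest signal well above background, and leaves out the scanner's error. Repeated spots of 1323 probes had a median SD of the difference of 0.04. Scripts were tested on simulated data.

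The values of 1 Hox member, counted among the 25, are not reported here. Every other Hox gene was named; of other lists, up to 4 genes past 1.5-fold or else the first 2 by alphabet, and bounds of at least 1.5-fold. Dbh, Evx1, Hba-a2, Dlx1, Pax7 and Cyp26b1 were named in addition, after their values were seen. So were the measured forebrain and midbrain genes besides Otx2, and genes not well above background on either array. The members and lists were chosen with earlier results of these data known. Alternatives were normexp (offset 50, on each spot's median intensity, as the files hold no mean) or no background correction, quantile, median, loess and other percentile scaling, the authors' table, other filters and gene summaries, and looser and stricter folds. Tools were Python 3.11.15, numpy 2.4.6, pandas 2.3.3, matplotlib 3.10.9, R 4.3.3 and limma 3.58.1.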

Additional observations from a re-analysis of the deposited data

How the results depend on the processing

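Centring on spike-in controls and detection against negative controls were chosen after seeing the data; the other settings were planned. The count of Hox genes 1.5-fold higher on the male array, 1 (Hoxa11), was 0 with normexp, without background correction, with brighter probes only, with no filter and at 2-fold, and 2 at a ratio of 5 to 4. Over all genes the male-side share, 0.797%, was 0.246%, 0.283%, 0.461%, 3.09% and 0.149% in those settings, and 3.05% at a ratio of 5 to 4. The count on the female side, 0, was 3 with no filter, 1 with probes above background on at least 1 array and 1 at a ratio of 5 to 4. The female-side share of all genes, 1.5%, was 6.84%, 4.04% and 5.09% there. The 3 genes were Hoxc9, Hoxc12 and Hoxd13, none well above background on both arrays. The median of 0.04 became -0.011 with normexp, -0.016 with quantile normalization and 0.10 with spike-in centring, which moved the median of all genes from 0.02 to 0.08. The 18 genes above background were 22 by the significance flag, 20 on at least 1 array and 20 above the 99th percentile of negative controls. Of 246 recomputed gene values 7 moved by more than the scanner's error. The authors' table holds the 24 Hox spots above background on at least 1 array. No paired analysis was possible because a single pooled array stands for each sex; for the same reason no replicate could be left out. The low signal of 11 of 18 genes limits their differences.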
